A study of Homo sapiens with 12 samples.

Results

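The receptor tyrosine kinases and ephrins are a list of 38 genes chosen by name: the receptors for the EGF, insulin, HGF, GAS6, FGF, PDGF, collagen and Wnt signals, the Eph receptors and the ephrins. Symbols were found for 21166 of the 21207 genes measured, and 31 of the 38 members were among them. Of these, 26 were high enough to be tested, together with 17767 genes in all, and 5 stayed near the lowest value of the data. FGFR2, KIT, ROR2, EPHA3, EPHA7, EPHB6 and EFNB3 had no entry among the genes analysed here.

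A receptor tyrosine kinase spans the membrane, binds a ligand outside the cell and, when receptors are brought together, phosphorylates itself and the adaptors that dock on it, which feeds the RAS, PI3K and phospholipase C pathways. Eph receptors bind ephrins, which are themselves held on the surface of a neighbouring cell, by a lipid anchor in ephrin-A and by a membrane-spanning segment in ephrin-B, so the pair signals at cell contacts and controls attachment, repulsion and boundary formation. In ovarian carcinoma EGFR, AXL and EPHA2 are known as receptors of tumour cells that carry signals for growth, migration and survival.

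HEYA8 is an established human ovarian cancer cell line. It was cultured for 48 h with colforsin daropate, a water-soluble derivative of forskolin that activates adenylyl cyclase and so raises cyclic AMP, at 1, 5 or 10 µM, or with vehicle (0 µM). Each of the 4 groups had 3 libraries of ribosome-depleted total RNA, numbered 6, 8 and 11 in every group, and the series' design text describes them as biological replicates. The labels give the number with the prefix p and do not say what it marks. All groups come from 1 cell line, and in such bulk samples fewer cells of a type and less RNA per cell cannot be told apart.

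Values are the authors' variance-stabilised levels, which run on a log2 scale for abundant genes and flatten to 4.86 for a gene with no reads. A difference is the mean level at a dose minus the mean level in vehicle, given with its standard error (SE, n = 3 libraries each), and a member rose or fell where limma's Benjamini-Hochberg adjusted p over all 17767 genes was under 0.05. Libraries held 23.9 to 48.4 megareads on genes, as recovered from the spacing of the low values. Number 6 held the fewest in every group, with 23.93 in vehicle against 41.13 and 47.05 in numbers 8 and 11. At 10 µM it held 31.16 against 38.36 and 40.24. The median level of 8 proliferation genes was highest in number 6 in vehicle, at 1 and at 5 µM, and not at 10 µM. In libraries 6, 8 and 11 it was 11.65, 9.54 and 9.29 in vehicle, 11.4, 10.3 and 9.84 at 1 µM, 10.85, 10.15 and 9.72 at 5 µM, and 9.68, 9.81 and 9.50 at 10 µM. HEYA8 expressed PAX8, KRT7, KRT8 and KRT18, with levels of 11.5 to 14.9, while WT1 (6.89 to 7.73) and MSLN (7.29 to 7.86) were low. EPCAM (5.45 to 5.72) and KRT19 (4.86 to 5.94) were near the minimum, and MUC16, FOLR1 and CDH1 had no entry. Of the markers of other cell types, the blood markers PTPRC and CD14 reached at most 5.91, and the liver marker ALB had 4.86 to 6.05. The endothelial genes PECAM1 and VWF had 5.57 to 7.39 and 6.83 to 8.05, and the endothelial cadherin CDH5 had 10.8 to 13.1. The summed count of the 6 such markers with an entry was 3876 to 4433 at 10 µM, 4143 to 5879 at 5 µM, 3892 to 9003 at 1 µM and 1873 to 7921 in vehicle. This sum was mostly CDH5, as no other of these markers exceeded a level of 8.05. The part of depth, of the proliferation genes and of these markers in the results was not tested.

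The stretches upstream of transcript starts are shown for ROR1, EFNA5, EPHB2 and AXL, members called at 10 µM, and for EPHA2, the member with a full cyclic AMP response element, the letters TGACGTCA through which CREB is known to act. Each covers 150 bases, from 175 to 26 bases before the RefSeq start (GRCh38.p14), on the strand of the gene, and capitals mark the element or a part of it (TGACG or CGTCA). The choice did not follow size alone. TYRO3, not shown, differed more at 10 µM (-0.86) than AXL (-0.70) and holds TGACG at -140, within the same span. For AXL the start without a match is shown. The stretches lie at chr1:63773842-63773991 on the plus strand for ROR1, chr5:107670963-107671112 on the minus strand for EFNA5, chr1:22710663-22710812 on the plus strand for EPHB2, chr19:41219048-41219197 on the plus strand for AXL and chr1:16156095-16156244 on the minus strand for EPHA2.
ROR1: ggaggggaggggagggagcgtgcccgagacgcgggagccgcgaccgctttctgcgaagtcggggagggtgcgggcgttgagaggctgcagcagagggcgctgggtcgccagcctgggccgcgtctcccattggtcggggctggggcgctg
EFNA5: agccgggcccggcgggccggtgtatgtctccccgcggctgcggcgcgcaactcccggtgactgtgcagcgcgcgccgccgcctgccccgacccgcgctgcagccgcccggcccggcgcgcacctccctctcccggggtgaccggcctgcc
EPHB2: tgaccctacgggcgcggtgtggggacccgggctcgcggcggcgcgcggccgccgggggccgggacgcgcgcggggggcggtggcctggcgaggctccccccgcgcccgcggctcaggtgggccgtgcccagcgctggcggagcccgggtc
AXL: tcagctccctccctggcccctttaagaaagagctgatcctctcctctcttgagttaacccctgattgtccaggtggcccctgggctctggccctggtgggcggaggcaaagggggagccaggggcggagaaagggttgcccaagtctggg
EPHA2: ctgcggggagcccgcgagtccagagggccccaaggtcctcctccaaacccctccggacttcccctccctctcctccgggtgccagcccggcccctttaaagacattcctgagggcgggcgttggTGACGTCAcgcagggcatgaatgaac

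The full element lay in 1 of the 58 windows of 300 bases (250 before to 50 after the start) that RefSeq gives for 35 members, that of EPHA2, where it began at position -51. Among all 35116 windows 1.85% held it. A part of it, on either strand and the full element included, lay in 10 of the 58 windows (17.2%), against 24.6% of all windows. Members with many starts, such as DDR1 and FGFR2, gave many of the 58. By member, 10 of the 35 held a part in at least 1 window, and no share by gene was made for all genes. Of the 11 windows of members called at 10 µM, 0 held the full element and 3 held a part, at -58 in EPHA4, -140 in TYRO3 and -195 in AXL. Each was at 1 start, and the other start of that gene held none. A match to these letters is a description and not a binding site, and the letters were looked for in these windows alone.

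Among expressed members, levels in vehicle spanned a wide range. Per kilobase of exon, AXL, the receptor for GAS6, was the most abundant, with 4290 normalised counts per kb in vehicle, a value above that of 98.1% of the tested genes. EPHA2 followed with 3058, MET, the HGF receptor, with 2383, and EGFR with 1376 counts per kb. RYK (731), EFNB1 (726), DDR2 (606) and PTK7 (495) came next. FGFR1, ERBB2, EPHB2, IGF1R and EFNB2 had 222 to 295 counts per kb. At the low end of the clearly expressed members stood MERTK with 23.2 and ROR1 with 18.4 counts per kb in vehicle, and ROR1 was above only 17% of the tested genes. PDGFRB (3.76) and PDGFRA (2.07) were near the minimum, with stabilised levels of 5.45 to 6.66 and 5.64 to 6.30 in the 12 libraries.

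**Figure D1:**
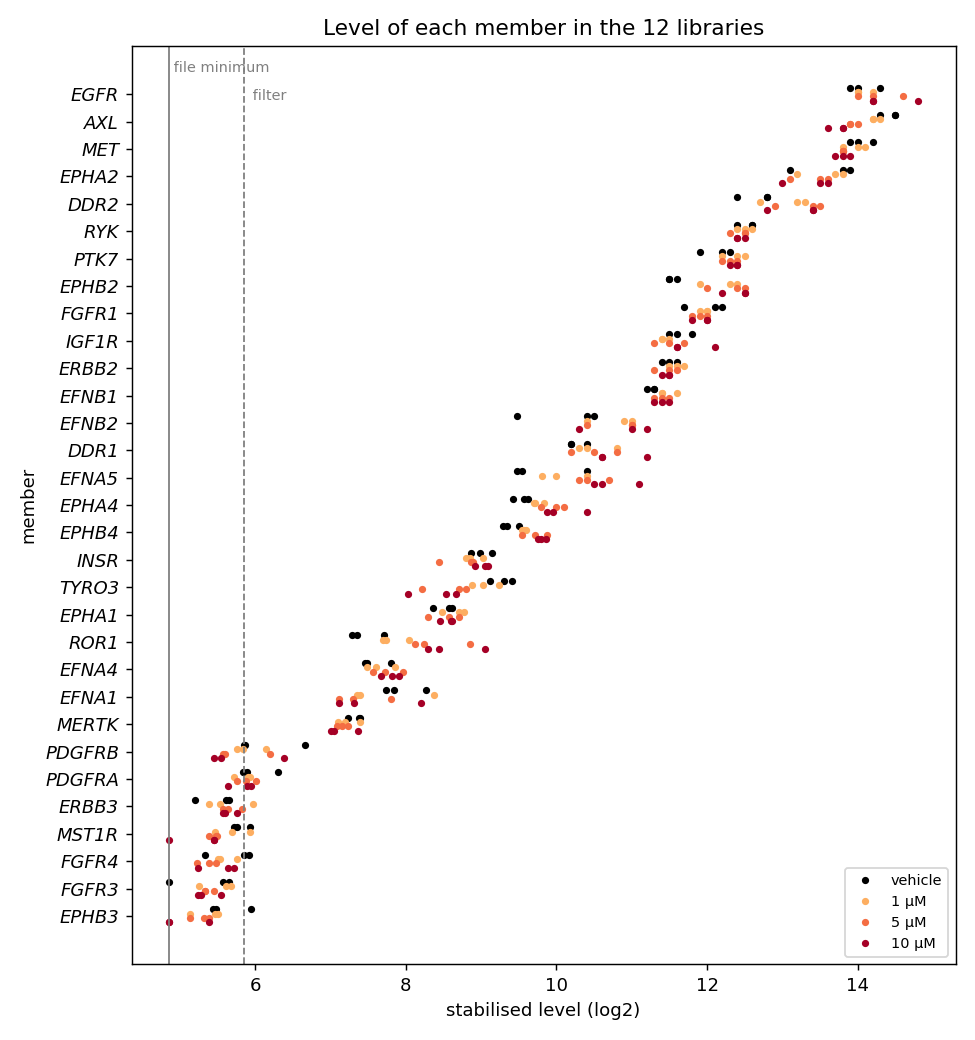
Stabilised level (log2 scale, x axis) of the 31 members with an entry (y axis), with 1 point for each of the 12 libraries, coloured by dose. The solid line is the lowest value in the data (4.86) and the dashed line stands 1 above it, the level a gene had to exceed in 3 libraries to be tested; EGFR, AXL, MET and EPHA2 lie highest and 5 members do not pass the dashed line in 3 libraries.

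Of the 26 members tested, 5 rose and 2 fell at 10 µM, 4 rose and 2 fell at 5 µM, and 0 passed the test in either direction at 1 µM. The 5 that rose at 10 µM were the Wnt5a receptor ROR1, the Eph receptors EPHB2, EPHA4 and EPHB4, and the ligand ephrin-A5 (EFNA5), a share of 19.2% against 11.2% of all genes tested. The 2 that fell were the TAM family receptors AXL and TYRO3, 7.69% of the members against 11.4% of all genes. At 5 µM the shares were 15.4% of members higher, against 7.67% of all genes, and 7.69% lower, against 7.44%. At 1 µM limma called 1.18% of all genes higher and 0.613% lower, 2 members were higher and 1 lower at an unadjusted p under 0.05, and voom on recovered counts called 1 member higher. The tested members had a median difference of 0.03 at 1 µM, of -0.01 at 5 µM and of 0.09 at 10 µM, against 0 over all tested genes at each dose, and the median size of the difference at 10 µM was 0.28 in members and 0.20 in all genes. The 3 doses share the same vehicle libraries.

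Libraries with the same number deviated together, so a model with the number as a block is given beside the results where it changed a call. The fit without number 6 and with no block is given in the same way for members against vehicle. With the block, 10 members rose and 6 fell at 10 µM (38.5% and 23.1%, against 18.7% and 19.7% of all genes), 7 rose and 4 fell at 5 µM (against 15.3% of all genes in each direction), and 4 rose and 0 fell at 1 µM (against 6.76% and 5.26%, with 1 lower at an unadjusted p under 0.05 in the fit without the block). Without the libraries of number 6 and with no block, 9 members rose and 6 fell at 10 µM, against 16.2% and 17.2% of all genes. Without those of number 8, or of number 11, 0 members rose and AXL alone fell at 10 µM (adjusted p = 0.0398 and 0.0276), so each of the other calls at 10 µM was lost there, and so was every call at 5 µM. Leaving out number 8 left 1.95% of all genes called higher and 1.42% lower at this dose, and leaving out number 11 left 2.63% and 2.78%. At 10 µM the 3 treated libraries did not overlap with the 3 vehicle libraries for 6 members that were higher (against 17% of all genes) and 2 that were lower (against 16.8%).

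**Figure D2:**
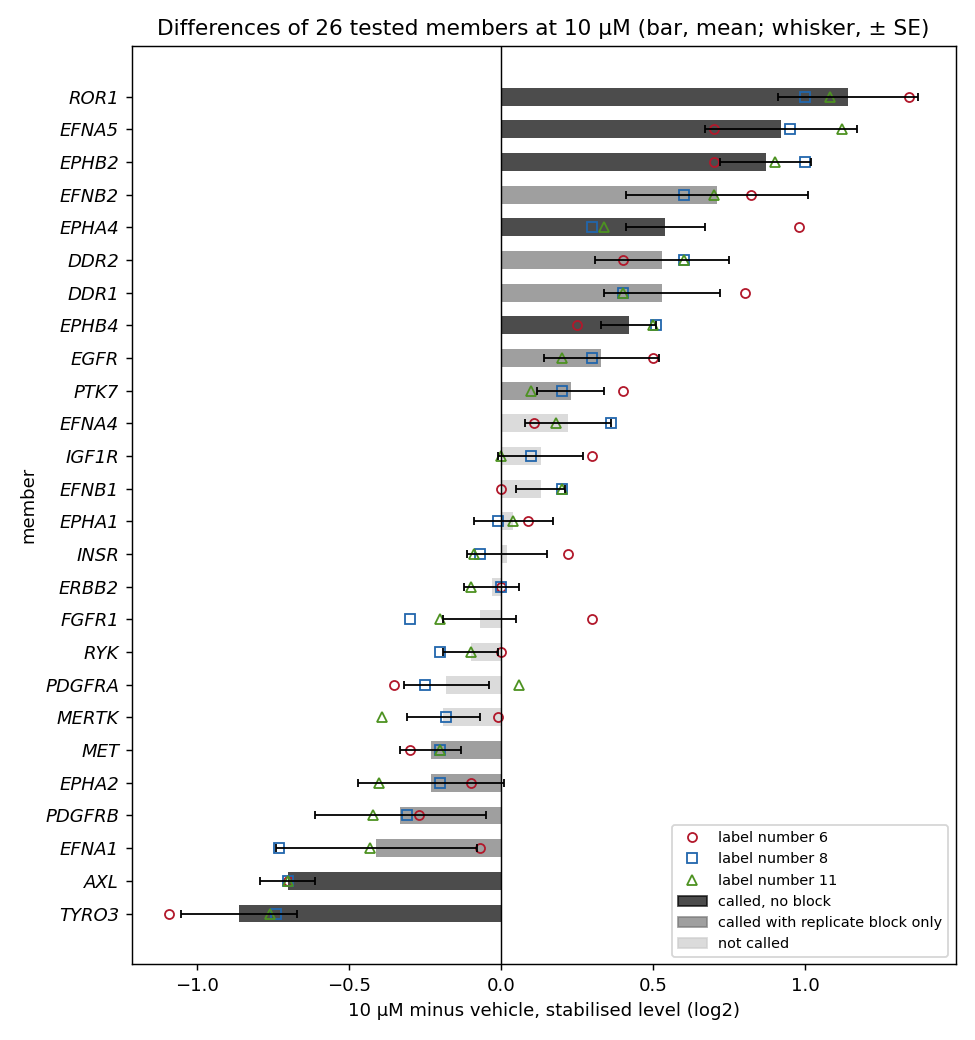
Difference in stabilised level (log2 scale, x axis) between 10 µM and vehicle for the 26 tested members (y axis). Bars are means over 3 libraries with whiskers of ± SE, open symbols are the differences within label numbers 6, 8 and 11, and bar shade shows the calls; ROR1 has the highest bar at 1.14 and TYRO3 the lowest at -0.86.

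ROR1, a receptor with little kinase activity of its own that binds WNT5A, had the largest difference of any tested member at 10 µM. Its levels in libraries 6, 8 and 11 were 7.71, 7.29 and 7.36 in vehicle, 8.04, 7.74 and 7.70 at 1 µM, 8.85, 8.13 and 8.24 at 5 µM, and 9.05, 8.29 and 8.44 at 10 µM. Each number was higher at every dose than in vehicle, and the 5 and 10 µM libraries did not overlap with the vehicle libraries. ROR1 lies at chr1:63774022-64181498 on the plus strand (GENCODE 29, GRCh38). It rose at 10 µM by 1.14 ± 0.23 (adjusted p = 0.00416) and at 5 µM by 0.95 ± 0.23 (adjusted p = 0.0158), while the 1 µM difference of 0.37 ± 0.23 passed with the block (adjusted p = 0.0331) and without number 6 (0.0342) but not in the fit of all libraries without the block (0.472). As normalised counts recovered from the stabilised values, it had 341 ± 116 at 10 µM and 123 ± 27.8 in vehicle (SD, n = 3 each), a 2.76-fold ratio. The 5 µM call was lost without the 5 µM library 6 (adjusted p = 0.0588), vehicle 8 (0.0635) or vehicle 11 (0.0565).

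The other Wnt-linked receptors tested had smaller differences at 10 µM. PTK7, a pseudokinase of planar cell polarity, had 11.9, 12.2 and 12.3 in vehicle, 12.2, 12.4 and 12.5 at 1 µM, 12.3, 12.2 and 12.4 at 5 µM, and 12.3, 12.4 and 12.4 at 10 µM in libraries 6, 8 and 11. Its groups overlapped, and the 10 µM difference of 0.23 ± 0.11 passed with the block (adjusted p = 0.0268) and not without it (0.154, and 0.179 without number 6). RYK, a Wnt receptor with an inactive kinase, differed by -0.10 ± 0.09 at 10 µM (adjusted p = 0.446), with levels of 12.3 to 12.6.

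WNT5A, a ligand of ROR1 and no member itself, rose as well. It had levels in libraries 6, 8 and 11 of 12.1, 12.1 and 12.3 in vehicle, 13, 13.2 and 13.5 at 1 µM, 13.4, 13.5 and 13.6 at 5 µM, and 13.9, 13.5 and 13.8 at 10 µM. The treated libraries lay above every vehicle library at each dose, and the 10 µM difference was 1.57 ± 0.13 (adjusted p = 2.63e-05), 3.00-fold in recovered counts.

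Among the Eph receptors, EPHB2, a receptor for ephrin-B ligands, was the most abundant per kb that rose. In libraries 6, 8 and 11 it had levels of 11.5, 11.5 and 11.6 in vehicle, 11.9, 12.4 and 12.3 at 1 µM, 12, 12.4 and 12.5 at 5 µM, and 12.2, 12.5 and 12.5 at 10 µM. All treated libraries lay above all vehicle libraries, already at the lowest dose, and the means of the 3 doses lay within 0.20 of each other. EPHB2, at chr1:22710839-22921500 on the plus strand, rose by 0.77 ± 0.15 at 5 µM (adjusted p = 0.00595) and by 0.87 ± 0.15 at 10 µM (adjusted p = 0.00198). At 1 µM the difference was 0.67 ± 0.15, with an adjusted p of 0.0502 without the block, 0.00043 with it and 0.000861 without number 6. Recovered counts were 5372 ± 628 at 10 µM and 2908 ± 120 in vehicle (SD, n = 3 each), a 1.85-fold ratio.

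EPHA4, which binds ephrins of both classes, rose as well, with number 6 furthest apart. Levels in libraries 6, 8 and 11 were 9.42, 9.57 and 9.62 in vehicle, 9.83, 9.72 and 9.70 at 1 µM, 10.1, 10.0 and 9.80 at 5 µM, and 10.4, 9.87 and 9.96 at 10 µM. Number 6 had the lowest vehicle level and the highest 10 µM level, a difference of 0.98, against 0.30 in number 8 and 0.34 in number 11. EPHA4, at chr2:221418027-221574202 on the minus strand, rose by 0.54 ± 0.13 at 10 µM (adjusted p = 0.0124, and 0.32 with adjusted p = 0.0189 without number 6). At 5 µM it rose by 0.43 ± 0.13 (adjusted p = 0.0477), a call lost without any 1 of 9 of the 12 libraries (highest adjusted p 0.153, without the 5 µM library 6) and under 5 other settings (adjusted p 0.0512 to 0.0544). Its exons share 353 bases with an antisense gene of low count, whose reads cannot be told apart from those of EPHA4 where strand was not used in counting.

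EPHB4, the receptor for ephrin-B2, had the smallest difference of the 7 members called at 10 µM. Levels of EPHB4 in libraries 6, 8 and 11 were 9.50, 9.35 and 9.29 in vehicle, 9.55, 9.60 and 9.57 at 1 µM, 9.72, 9.54 and 9.87 at 5 µM, and 9.75, 9.86 and 9.79 at 10 µM. The treated libraries of each dose lay above the vehicle libraries, narrowly so at 5 µM, where the lowest library had 9.54 and the highest vehicle library 9.50. EPHB4, at chr7:100802565-100827521 on the minus strand, rose by 0.42 ± 0.09 at 10 µM (adjusted p = 0.00755), 1.37-fold in recovered counts. The rise of 0.33 ± 0.09 at 5 µM (adjusted p = 0.034) was lost without any 1 of 6 libraries (highest adjusted p 0.125, without the 5 µM library 11). SLC12A9 overlaps 69 bases of its exons on the opposite strand.

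EPHA2, the most abundant Eph receptor per kb, did not pass the test in the fit of all libraries without the block. The 3 libraries, in the order 6, 8, 11, had 13.1, 13.8 and 13.9 in vehicle, 13.2, 13.8 and 13.7 at 1 µM, 13.1, 13.5 and 13.6 at 5 µM, and 13, 13.6 and 13.5 at 10 µM. Number 6 was the lowest in every group, by 0.58 on average, and the groups overlapped. The 10 µM difference was -0.23 ± 0.24 (adjusted p = 0.531), and it passed with the block (adjusted p = 0.0234) and without number 6 (0.0141), where the 5 µM difference passed too (0.0169). EPHA1 had levels of 8.30 to 8.78 and a 10 µM difference of 0.04 ± 0.13 (adjusted p = 0.853), and 82 bases of its exons overlap ZYX, which had a mean of 2259 counts beside 324 for EPHA1.

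Of the ephrins, the ligands of these receptors, EFNA5 alone rose in the fit of all libraries without the block. EFNA5 is a lipid-anchored ligand of EphA receptors. Levels of EFNA5 in libraries 6, 8 and 11 were 10.4, 9.55 and 9.48 in vehicle, 10.4, 9.81 and 10.0 at 1 µM, 10.7, 10.3 and 10.4 at 5 µM, and 11.1, 10.5 and 10.6 at 10 µM. Number 6 was the highest in every group, and its vehicle library reached the level of several treated ones, so that only the 10 µM libraries lay clear of vehicle. EFNA5, at chr5:107376889-107670895 on the minus strand, rose at 10 µM by 0.92 ± 0.25 (adjusted p = 0.0195), with 1674 ± 404 counts at 10 µM and 881 ± 358 in vehicle (SD, n = 3 each), a 1.90-fold ratio. The call was lost without the 10 µM library 6 (adjusted p = 0.0795), vehicle 8 (0.0782) or vehicle 11 (0.0778). At 5 µM the difference of 0.66 ± 0.25 had an adjusted p of 0.0988, against 0.000356 with the block and 0.000621 without number 6, where the 1 µM difference passed too (0.0282).

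EFNB2, the membrane-spanning ligand of EPHB4 and EPHB2, differed by a similar amount at all doses and did not pass in the fit of all libraries without the block. The levels of EFNB2 in libraries 6, 8 and 11 were 9.48, 10.4 and 10.5 in vehicle, 10.4, 10.9 and 11 at 1 µM, 10.4, 11 and 11 at 5 µM, and 10.3, 11 and 11.2 at 10 µM. Number 6 was the lowest in each group, and within each number every dose was above vehicle. The differences were 0.64 ± 0.30, 0.67 ± 0.30 and 0.71 ± 0.30 at 1, 5 and 10 µM, with adjusted p of 0.337, 0.164 and 0.119 without the block, 0.000718, 0.000114 and 5.39e-05 with it, and 0.0117, 0.0028 and 0.00114 without number 6. An antisense gene on the opposite strand shares 1313 of the 5019 exon bases of EFNB2 and had a mean of 859 counts beside 1603, so the share of EFNB2 in these values is uncertain.

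EFNA1, another EphA ligand, lay lower with treatment in most pairs. Libraries 6, 8 and 11 had levels of 8.27, 7.84 and 7.74 in vehicle, 8.37, 7.40 and 7.35 at 1 µM, 7.81, 7.30 and 7.12 at 5 µM, and 8.20, 7.11 and 7.31 at 10 µM. Number 6 was the highest in each group and hardly differed from its vehicle library at 10 µM (-0.07), against -0.73 in number 8 and -0.43 in number 11. EFNA1 differed by -0.54 ± 0.33 at 5 µM and by -0.41 ± 0.33 at 10 µM. The adjusted p at these doses was 0.31 and 0.408 without the block, 0.00741 and 0.0244 with it, and 0.00821 and 0.00675 when number 6 was left out. EFNA4 (levels 7.46 to 7.96) and EFNB1 (11.2 to 11.6) passed against vehicle neither without nor with the block over all libraries, with 10 µM differences of 0.22 ± 0.14 and 0.13 ± 0.08. Both were called higher at 10 µM where the block was fitted to numbers 8 and 11 alone.

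**Figure D3:**
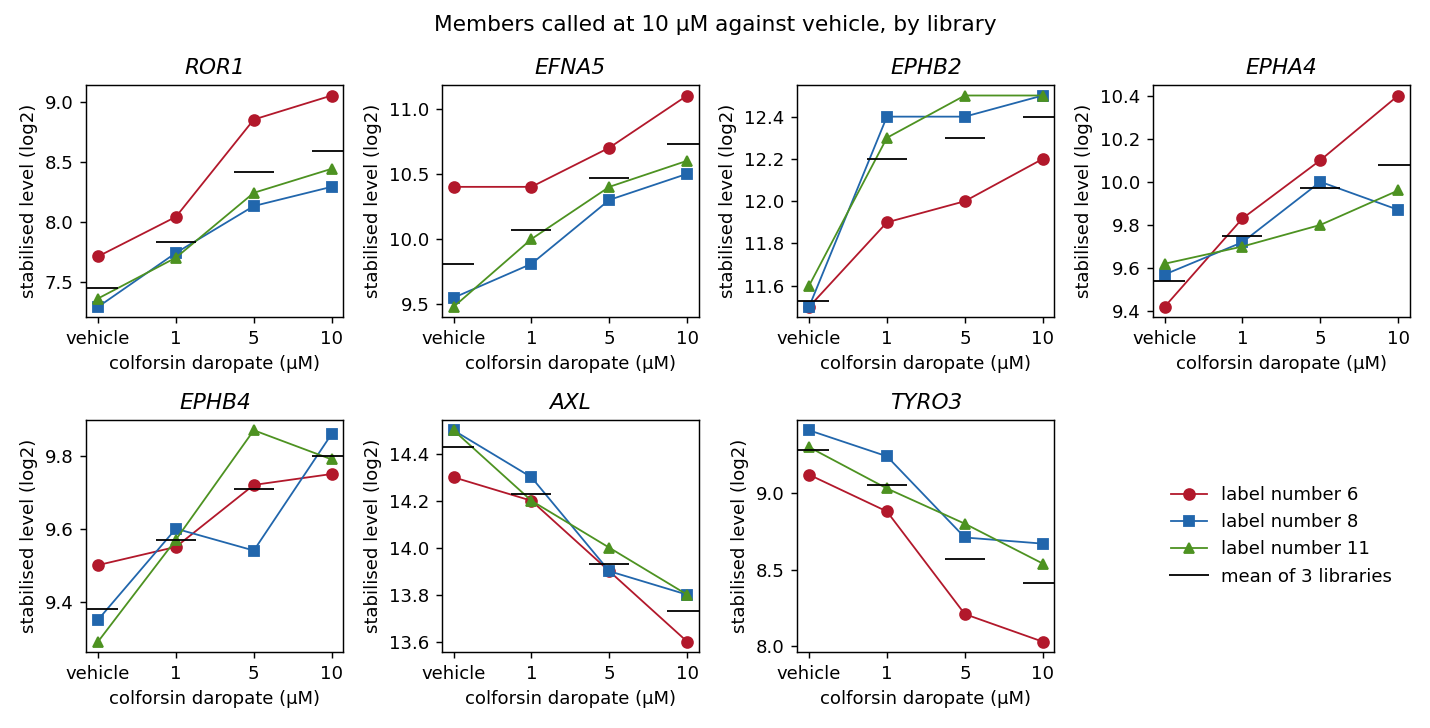
Stabilised level (log2 scale, y axis) of the 7 members called at 10 µM against vehicle, by dose of colforsin daropate (µM, x axis), with lines joining libraries of the same label number and a bar at the mean of 3 libraries. ROR1, EFNA5, EPHB2, EPHA4 and EPHB4 end above their vehicle libraries at 10 µM, and AXL and TYRO3 end below them; each panel has its own y range, which does not start at 0.

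AXL and TYRO3, which with MERTK make up the TAM family of receptors for GAS6 and protein S, fell at 5 and 10 µM. AXL levels in libraries 6, 8 and 11 were 14.3, 14.5 and 14.5 in vehicle, 14.2, 14.3 and 14.2 at 1 µM, 13.9, 13.9 and 14 at 5 µM, and 13.6, 13.8 and 13.8 at 10 µM. All 5 and 10 µM libraries lay below all vehicle libraries, and the 10 µM difference was -0.70 in each of the 3 numbers. AXL, at chr19:41219203-41261766 on the plus strand, fell by 0.70 ± 0.09 at 10 µM (adjusted p = 0.000246) and by 0.50 ± 0.09 at 5 µM (adjusted p = 0.00292), and differed by -0.20 ± 0.09 at 1 µM (adjusted p = 0.29, and 0.0583 with the block). Without number 6 and with no block, the 1 µM difference was -0.25 and passed (adjusted p = 0.036). It had 13590 ± 1066 recovered counts at 10 µM and 22110 ± 1731 in vehicle (SD, n = 3 each), a ratio of 0.615. An antisense gene shares 67 bases of its 5154 exon bases.

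TYRO3 levels in libraries 6, 8 and 11 were 9.12, 9.41 and 9.30 in vehicle, 8.88, 9.24 and 9.03 at 1 µM, 8.21, 8.71 and 8.80 at 5 µM, and 8.03, 8.67 and 8.54 at 10 µM. Number 6 was the lowest in every group, and the 5 and 10 µM libraries lay below all vehicle libraries. TYRO3, at chr15:41557675-41583586 on the plus strand, fell by 0.86 ± 0.19 at 10 µM (adjusted p = 0.00702) and by 0.70 ± 0.19 at 5 µM (adjusted p = 0.0278). The counts were 291 ± 75.6 at 10 µM and 566 ± 62.2 in vehicle (SD, n = 3 each), a ratio of 0.515. The 5 µM call was lost without the 5 µM library 6 (adjusted p = 0.0999), vehicle 8 (0.0999) or vehicle 11 (0.0786). MERTK, the least abundant of the TAM receptors per kb, had levels of 7.01 to 7.40 and a 10 µM difference of -0.19 ± 0.12 (adjusted p = 0.291).

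Between the ends of the dose range, AXL was the only member called without the block, lower at 10 µM than at 1 µM by 0.50 ± 0.09 (adjusted p = 0.0117, against 2.54% of all genes lower and 2.17% higher). This AXL call was lost without the 1 µM library 8 (adjusted p = 0.0682). It was also lost without all libraries of number 8 (0.385) or of number 11 (0.196). With the block EGFR, IGF1R, DDR1, ROR1 and EFNA5 were higher and AXL and TYRO3 lower at 10 µM than at 1 µM, against 9.46% and 11.4% of all genes. Between 10 and 5 µM limma called 0 members and 0 of 17767 genes, with 265 genes higher and 336 lower at an unadjusted p under 0.05 and 0 called by voom.

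The collagen receptors DDR1 and DDR2 were called with the block and without number 6, and not in the fit of all libraries without the block. DDR2, typical of mesenchymal cells, had levels in libraries 6, 8 and 11 of 12.4, 12.8 and 12.8 in vehicle, 12.7, 13.2 and 13.3 at 1 µM, 12.9, 13.5 and 13.4 at 5 µM, and 12.8, 13.4 and 13.4 at 10 µM. Within each number every treated library was above its vehicle library, and number 6 was the lowest of each group, by 0.52 on average. The DDR2 differences were 0.40, 0.60 and 0.53 (each ± 0.22) at 1, 5 and 10 µM, with adjusted p of 0.408, 0.0862 and 0.102 without the block, 0.00155, 2.00e-05 and 3.16e-05 with it, and 0.0048, 0.000363 and 0.000361 without number 6. DDR1, typical of epithelial cells, had 10.4, 10.2 and 10.2 in vehicle, 10.8, 10.4 and 10.3 at 1 µM, 10.8, 10.2 and 10.5 at 5 µM, and 11.2, 10.6 and 10.6 at 10 µM. The 10 µM libraries of DDR1 lay above all vehicle libraries, and the difference of 0.53 ± 0.19 had an adjusted p of 0.068, against 0.000677 with the block and 0.018 without number 6.

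EGFR, the receptor for EGF, TGFA and HBEGF, was high in all libraries. EGFR levels in libraries 6, 8 and 11 were 14.3, 13.9 and 14 in vehicle, 14.2, 14 and 14 at 1 µM, 14.6, 14.2 and 14 at 5 µM, and 14.8, 14.2 and 14.2 at 10 µM. Number 6 was the highest in every group, and the groups overlapped. The 10 µM difference of 0.33 ± 0.19 had an adjusted p of 0.228, against 0.00848 with the block and 0.0379 without number 6. ERBB2, the partner of EGFR, had 11.3 to 11.7 and a 10 µM difference of -0.03 ± 0.09 (adjusted p = 0.83). The exons of ERBB2 share 571 bases with MIEN1 and 194 with PGAP3, both on the opposite strand. These genes had means of 886 and 504 counts beside 2863 for ERBB2.

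MET, the receptor for HGF, lay slightly lower with treatment. MET levels in libraries 6, 8 and 11 were 14.2, 13.9 and 14 in vehicle, 14.1, 13.8 and 14 at 1 µM, 13.8, 13.8 and 13.8 at 5 µM, and 13.9, 13.7 and 13.8 at 10 µM. The 5 µM libraries lay below all vehicle libraries and those at 10 µM overlapped with them. The difference was -0.23 ± 0.10 at both 5 and 10 µM, with adjusted p of 0.145 and 0.119 without the block, 0.0183 and 0.0144 with it, and 0.196 and 0.0894 without number 6.

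The insulin-family receptors IGF1R and INSR passed neither way against vehicle, with levels of 11.3 to 12.1 and 8.44 to 9.14 and 10 µM differences of 0.13 ± 0.14 and 0.02 ± 0.13. IGF1R was higher at 10 µM than at 1 µM by 0.33, with an SE of 0.14 without the block and 0.08 with it. This difference passed with the block (adjusted p = 0.0146) and not without it (0.202). FGFR1, the only FGF receptor of the list that was tested, had levels of 11.7 to 12.2 and a 10 µM difference of -0.07 ± 0.12 (adjusted p = 0.734). FGFR1 differed by 0.30 in number 6 and by -0.30 and -0.20 in numbers 8 and 11, and without number 6 the difference was -0.25 (adjusted p = 0.0441). Its exons share 138 bases with LETM2 on the opposite strand. PDGFRB, the PDGF-B receptor, had 6.66, 5.86 and 5.87 in vehicle, 6.14, 5.84 and 5.76 at 1 µM, 6.20, 5.57 and 5.6 at 5 µM, and 6.39, 5.55 and 5.45 at 10 µM in libraries 6, 8 and 11. It was highest in number 6 of each group, rested on means of 15.8 recovered counts at 10 µM and 26.8 in vehicle, and had a 10 µM difference of -0.33 ± 0.28 with an adjusted p of 0.442, against 0.0493 with the block and 0.0223 without number 6. PDGFRA differed by -0.18 ± 0.14 at 10 µM (adjusted p = 0.406).

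The members near the minimum had few reads and are read here as not clearly expressed at this depth. They were the neuregulin receptor ERBB3 (levels 5.20 to 5.97), the MSP receptor MST1R (4.86 to 5.94), the FGF receptors FGFR3 (4.86 to 5.68) and FGFR4 (5.23 to 5.92), and the Eph receptor EPHB3 (4.86 to 5.95). In vehicle they had at most 13 recovered counts on average, that of MST1R. MST1R and FGFR3 were at the minimum in 1 library each and EPHB3 in 2. When no filter on low levels was set, MST1R and EPHB3 passed the test at 10 µM, with differences of -0.55 ± 0.17 (adjusted p = 0.0362) and -0.59 ± 0.18 (adjusted p = 0.039). PDGFRA and PDGFRB passed the filter but stood within 2 of the minimum in all 12 libraries.

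Part of the spread among the vehicle and treated libraries followed the label number, and its sign differed between members. Averaged over the 4 groups, number 6 was above the mean of 8 and 11 by 0.77 for EFNA1, 0.66 for PDGFRB, 0.57 for EFNA5, 0.51 for ROR1, 0.43 for DDR1 and 0.41 for EGFR. It was below that mean by an average of -0.73 for EFNB2, -0.58 for EPHA2, -0.52 for DDR2, -0.40 for TYRO3 and -0.31 for EPHB2. Each of these 11 members kept its sign in all 4 groups, from the vehicle to the 10 µM libraries. These differences compare 1 library with 2 in each group, and no test was made.

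**Figure D4:**
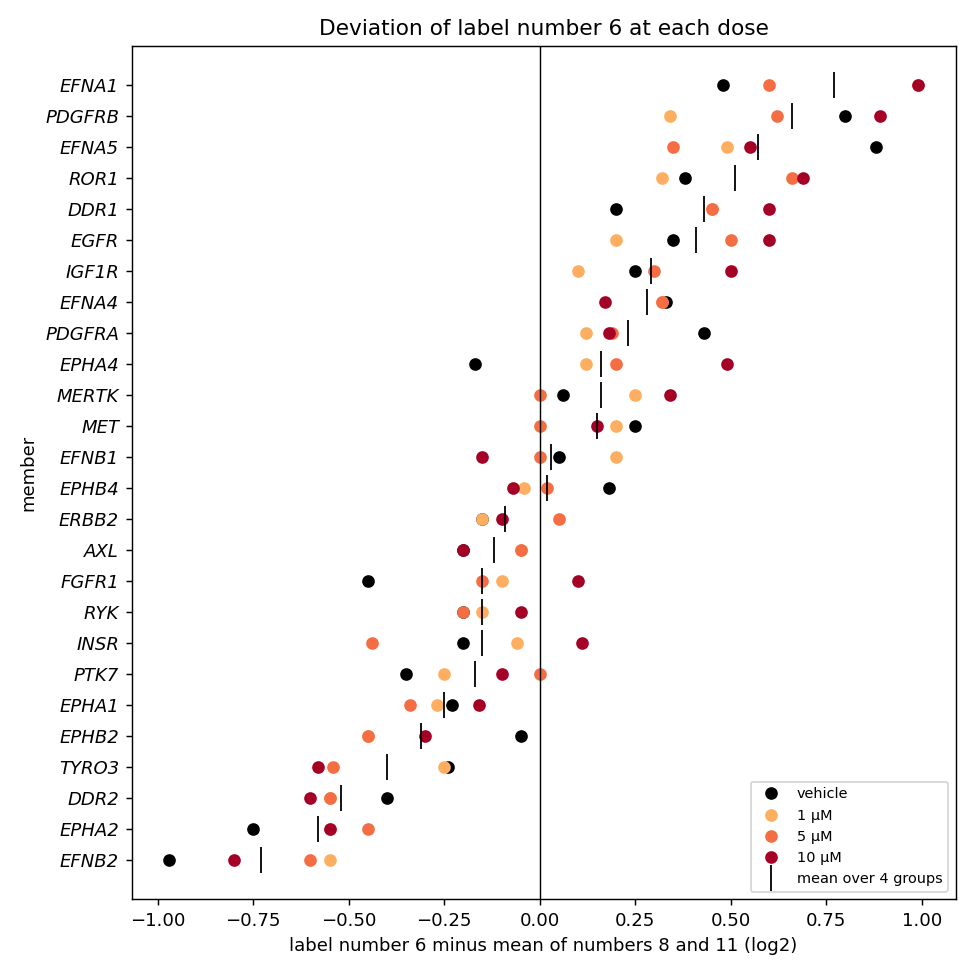
Level in the library of label number 6 minus the mean of numbers 8 and 11 (log2 scale, x axis) for the 26 tested members (y axis), with 1 point for each of the 4 groups and a tick at their mean. EFNA1 has the highest mean at 0.77 and EFNB2 the lowest at -0.73, and the points of these members stay on 1 side of 0.

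The remaining receptor tyrosine kinases and ephrins, a list of 26 genes of which 17 had an entry and 15 were tested, held 1 call at 10 µM. This was STYK1, a kinase with a membrane-spanning segment and no known ligand, which fell by 0.64 ± 0.14 (adjusted p = 0.00668). With the block 0 of the list were higher and 2 lower. These counts stand beside 11.2% of all genes higher and 11.4% lower, or 18.7% and 19.7% with the block. The median difference of the list at 10 µM was -0.11.

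Growth factor, GAS6-type and Wnt ligands of the members, a list of 27 genes with 20 tested, had 2 higher and 0 lower at 1 µM, 5 and 1 at 5 µM, and 6 and 2 at 10 µM. Of all genes 1.18% and 0.613%, 7.67% and 7.44%, and 11.2% and 11.4% were called at these doses. With the block the ligands had 6 higher and 0 lower, 9 and 4, and 8 and 4, against 6.76% and 5.26%, 15.3% in each direction, and 18.7% and 19.7% of all genes. The largest differences beside that of WNT5A were those of HBEGF, a heparin-binding ligand of EGFR, and of WNT5B. HBEGF had levels of 10.6, 11.2 and 11.4 at 10 µM, against 9.44, 10.2 and 10.3 in vehicle (libraries 6, 8 and 11), with no overlap, and it rose by 1.09 ± 0.31 (adjusted p = 0.0266). WNT5B rose by 1.00 ± 0.17 at 10 µM (adjusted p = 0.00202). The median difference of the 20 ligands at 10 µM was 0.23.

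The adaptors that dock on activated receptors, 35 listed and 31 tested, had 2 higher and 1 lower at 1 µM, 6 and 2 at 5 µM, and 7 and 4 at 10 µM, with a median difference of 0.03 at 10 µM. With the block 5 and 1, 8 and 5, and 7 and 7 were called. The shares of all genes are those given for the ligands. IRS2, an adaptor of the insulin and IGF1 receptors, had 9.18, 9.19 and 8.95 at 10 µM, against 10.2, 10.1 and 10.2 in vehicle. It fell by 1.06 ± 0.09 (adjusted p = 2.63e-05), to 0.454 of its vehicle counts. The SH2/SH3 adaptor NCK2 rose by 1.00 ± 0.13 (adjusted p = 0.000285), and GAB2 (0.97 ± 0.12, adjusted p = 0.000253) and VAV2 (0.97 ± 0.24, adjusted p = 0.0123), which had the same difference, rose as well.

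The regulators that restrain, degrade or shed receptors and ligands, 33 listed and 32 tested, had 6 higher and 3 lower at 5 µM and 8 and 4 at 10 µM, with a median difference of 0.13 at 10 µM, beside the same shares of all genes. With the block 6 and 1 were called at 1 µM, 10 and 4 at 5 µM, and 12 and 6 at 10 µM. ADAM12, a metalloprotease that sheds ligands such as HBEGF, had 10.4, 9.96 and 9.99 at 10 µM, against 9.05, 7.78 and 7.87 in vehicle. It rose by 1.88 ± 0.30 (adjusted p = 0.00112), 3.90-fold in recovered counts, with number 6 the highest in both groups. LRIG1, a membrane protein that promotes the turnover of EGF receptors, rose by 1.29 ± 0.23 (adjusted p = 0.00256). ERRFI1, an intracellular inhibitor of EGFR, had 11.1, 11.7 and 11.8 at 10 µM and 13, 12.4 and 12.5 in vehicle, and fell by 1.10 ± 0.21 (adjusted p = 0.00365). At 1 µM limma without the block called 0 of the 32, with 4 higher and 2 lower at an unadjusted p under 0.05 and 0 called by voom.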

How the data were processed

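RNA was measured in 12 libraries of HEYA8 cells, 3 for each of vehicle and 1, 5 and 10 µM colforsin daropate, grouped by their titles. The authors deposited variance-stabilised values on a log2 scale. DESeq2 and the build GRCh38 stand in the list of tools and builds per the submitters' processing notes, with no step given. For the aligner, counting tool, strand setting and annotation release the sources used here give nothing. The deposited table held 21207 genes and 4 entries that name no gene, which were left out. Values were rounded to steps of 0.01 under 10 and of 0.1 from 10 up, where 30.9% of values lay. The stabilised scale understates the fold of a low gene, so normalised counts were recovered by inverting its curve, and these carry the rounding error. Of 51602 low values, 99.3% matched whole reads within 0.005, and 22.3% did so with the scale of another library.

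Differences were tested with limma 3.58.1 in R 4.3.3 (moderated, two-sided, all 12 libraries, dose group as the only term), over the 17767 genes more than 1 above the minimum in at least 3 libraries. P-values were adjusted by Benjamini-Hochberg over all of them, with a threshold of 0.05. The test was run on simulated data in which libraries varied independently, so that check does not cover the shared deviation by number. Depth per library comes from the recovered reads (23.9 to 48.4 megareads). The design text calls libraries biological replicates, and p-values measure the spread between these libraries. Deviations from group means correlated at 0.316 to 0.777 in all 18 pairs of libraries with the same number. Between numbers 8 and 11 they correlated at 0.199 to 0.569, and between number 6 and the others at -0.711 to -0.287. The 3 deviations of a group sum to 0, so the negative values follow from the positive ones within number 6. Same-number pairs of number 8 (0.316 to 0.506) lay within the range between 8 and 11, so only number 6 stood clearly apart. The numbers were taken to pair the libraries, a choice resting on these values and not on the labels. The fit without the block remained the main one, and each SE is from it unless stated. For DDR2 at 10 µM the SE was 0.22 without the block and 0.06 with it.

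Members called at any dose, with or without the block, are given with values by library, and the others by level. Of each pathway list, the calls were counted and the 3 genes with the largest called difference at 10 µM were named. The members and lists were chosen with earlier results of these data known. Positions are from GENCODE 29 and promoter stretches from RefSeq (GRCh38.p14). Alternatives were the block, other filters, scalings, weights and groups in the fit, voom on recovered counts, and leaving out libraries.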

Additional observations from a re-analysis of the deposited data

How the results depend on the processing

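None of the 78 differences of tested members from vehicle turned its sign past the threshold under any alternative run. Counts are given as higher and lower, at 1, 5 and 10 µM against vehicle. With the replicate block, which pairs libraries by number, 4 and 0, 7 and 4, and 10 and 6 members were called, and of all genes 1201 and 934, 2712 and 2724, and 3326 and 3498. At 10 against 1 µM the block gave 5 and 2 members. The calls it changed are given beside each member, and it changed no other call of a member against vehicle or at 10 against 1 µM. Blocked numbers 8 and 11 alone gave 5 and 1, 6 and 5, and 11 and 8 members, 2 and 2 at 10 against 1 µM, and 1419 and 1155, 2656 and 2626, and 3049 and 3236 genes. In that fit EFNA4 and EFNB1 were called higher and RYK lower at 10 µM, which the block over all libraries did not call. Voom on recovered counts with the block, chosen after seeing the data, gave 4 and 1, 7 and 5, and 10 and 5 members, 5 and 2 at 10 against 1 µM, and 1282 and 1077, 2778 and 2847, and 3343 and 3585 genes. Array weights gave 8 and 1, 9 and 5, and 11 and 5 members, 2 and 2 at 10 against 1 µM, and 2675 and 2451, 3829 and 3825, and 3633 and 3761 genes. With only the groups compared in the fit, 29 and 19, 840 and 761, and 1276 and 1277 genes were called, and 2 and 1 members at 5 µM and 3 higher at 10 µM, with EPHB4, EPHA4 and TYRO3 lost at 5 µM and EFNA5 and EPHA4 at 10 µM. EPHA4 at 5 µM was also lost with a median shift (adjusted p = 0.0533), no filter (0.0525), quantile normalisation (0.0527) and voom (0.0512), and EPHB4 at 5 µM with blocked numbers 8 and 11 alone (0.0515). One member was called higher at 1 µM with the stricter filter, with quantile normalisation and with voom without the block, and 4 fell at 10 µM with no filter. Leaving out libraries gave 0 to 5 and 0 to 1 members at 1 µM, 0 to 7 and 0 to 4 at 5 µM, 0 to 9 and 1 to 6 at 10 µM, and 0 to 2 in each direction at 10 against 1 µM. The same fits gave 2 to 1200 and 0 to 973 genes at 1 µM, 81 to 2485 and 56 to 2454 at 5 µM, and 347 to 2885 and 252 to 3050 at 10 µM. The cause of these shifts was not tested. A median shift of the libraries moved values by at most 0.0483. With 3 libraries a group, rounding steps of 0.1 above level 10 and members at few reads near the minimum, small differences were not detectable.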
